A study of Mus musculus with 82 samples.

Results

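The mitochondrial respiratory chain carries electrons from NADH and succinate to oxygen through complexes I to IV, and ATP synthase uses the proton gradient that the chain builds up. A small core of subunits is transcribed inside the mitochondrion from its own DNA, and all other subunits are transcribed by RNA polymerase II from genes scattered over the nuclear chromosomes. Mouse embryonic stem (ES) cells draw heavily on glycolysis while keeping a working respiratory chain. The nuclear genes were chosen by symbol on the mouse genome GRCm38 (mm10): protein-coding RefSeq genes that begin with Nduf, Sdh (a to d), Uqcr, Cox4 to Cox8 or Atp5. There were 96 such genes, of which 95 had a curated transcript and were counted (Ndufb4b did not), out of 24742 genes with a curated transcript in all. Complex I contributed 40 of them, its assembly factors 8, complex II 4, complex III 8, complex IV 18 and ATP synthase 17.

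Nascent RNA was measured in V6.5 mouse ES cells, a line from the inner cell mass of a C57BL/6 × 129/sv embryo, grown on gelatin in serum with leukaemia inhibitory factor. No group carried another genotype or treatment, and the groups differed in the assay and, in part, in the experiment they came from. Nuclei are permeabilised, engaged polymerases add a propargyl nucleotide in a run-on reaction, and the labelled RNA is clicked to barcoded DNA, so each molecule marks the position of 1 polymerase. In scGRO–seq single nuclei were sorted into wells, in inAGTuC (intact-nuclei AGTuC) each well held many intact nuclei at the same low sarkosyl concentration, and in AGTuC the run-on was made on a bulk of nuclei at a sarkosyl concentration that breaks the nuclear membrane.

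The scGRO–seq values come from 2478 cells in 35 libraries (26 to 96 cells each) of 10 batches, counted as 10 replicates, and they are set beside 4 inAGTuC and 2 AGTuC libraries. Cells had a median of 3460 unique molecular identifiers (UMIs), between 1264 and 51431. Of the reads in the 53 libraries of these batches, 28.9% were also found in another library with the same barcode, UMI and position, and these were left out. Plates reuse cell barcodes (each library shared them with 5 to 45 others), so a cell is a barcode within its library. The inAGTuC library Exp261_c16 shares 99.8% of its molecules with another list, nearly all with an scGRO–seq list of the same name that is outside the 10 batches. The lists do not show which of the 2 assay labels is right, so the counts of calls among members are also given without it. Counts for the other gene lists are given only with it. Both AGTuC libraries are of experiment Exp125c, hence assay and experiment cannot be told apart for AGTuC, whereas Exp208 holds an scGRO–seq batch and 2 inAGTuC libraries. Nothing states that replicates came from separate cultures, so p-values measure the spread between these samples, which may be technical. Of 10 defining ES-cell genes, 8 had levels from 2.69 (Esrrb) to 16.2 (Tdgf1) UMIs per kb per 1000000 in scGRO–seq, with Pou5f1 at 8.19 and Nanog at 4.96, while Dppa5a had 0 in its body and Sox2 had no body that could be counted. The feeder and germ-layer markers ranged from 0 to 1.73 over the 3 assays. Olfactory receptor genes, which ES cells do not use, had a summed level of 0.114 in scGRO–seq, 0.111 in inAGTuC and 0.00906 in AGTuC, and serve as the background below.

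The body level of a gene is its sense UMIs per kb of body per 1000000 sense UMIs in all bodies, where the body leaves out 500 bases at each end of the gene and bases shared with another gene on the same strand. Respiratory chain genes were short, with a median span of 7.08 kb against 16.7 kb for protein-coding genes, and were transcribed above most genes. Over the 84 members with at least 1000 counted bases, the median level was 1.95 in scGRO–seq, 2.13 in inAGTuC and 3.72 in AGTuC, against 0.817, 0.933 and 0.875 for protein-coding genes of such length. In scGRO–seq 77 of these 84 lay above the protein-coding median and 7 had a level under 1. Antisense molecules were 0.364 times the sense ones on the members in scGRO–seq, 0.368 times in inAGTuC and 0.184 times in AGTuC.

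ATP synthase genes stood highest. Atp5b, which encodes the catalytic beta subunit, led all members of that length in scGRO–seq, with batch levels from 6.19 to 26.8 and a median of 17.4. Its levels were 15.3, 12.03, 6.81 and 22.97 in the inAGTuC libraries and 16.6 and 14.02 in the AGTuC libraries, so the 3 assays overlapped. Atp5a1, the alpha subunit that alternates with beta, was next among ATP synthase genes, with a pooled level of 8.41 in scGRO–seq, 8.76 in inAGTuC and 15.0 in AGTuC. Atp5g3, one of the genes for the membrane ring, had 4.75 from only 41 UMIs in scGRO–seq. Atp5c1, the rotating gamma subunit, had 4.085 from 438 UMIs. The lowest of the complex were Atp5o, which joins the head to the stalk, at 1.49, Atp5md at 1.80 and Atp5e, the epsilon subunit, at 1.825. Atp5k had only 154 counted bases and 3 UMIs.

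**Figure D1:**
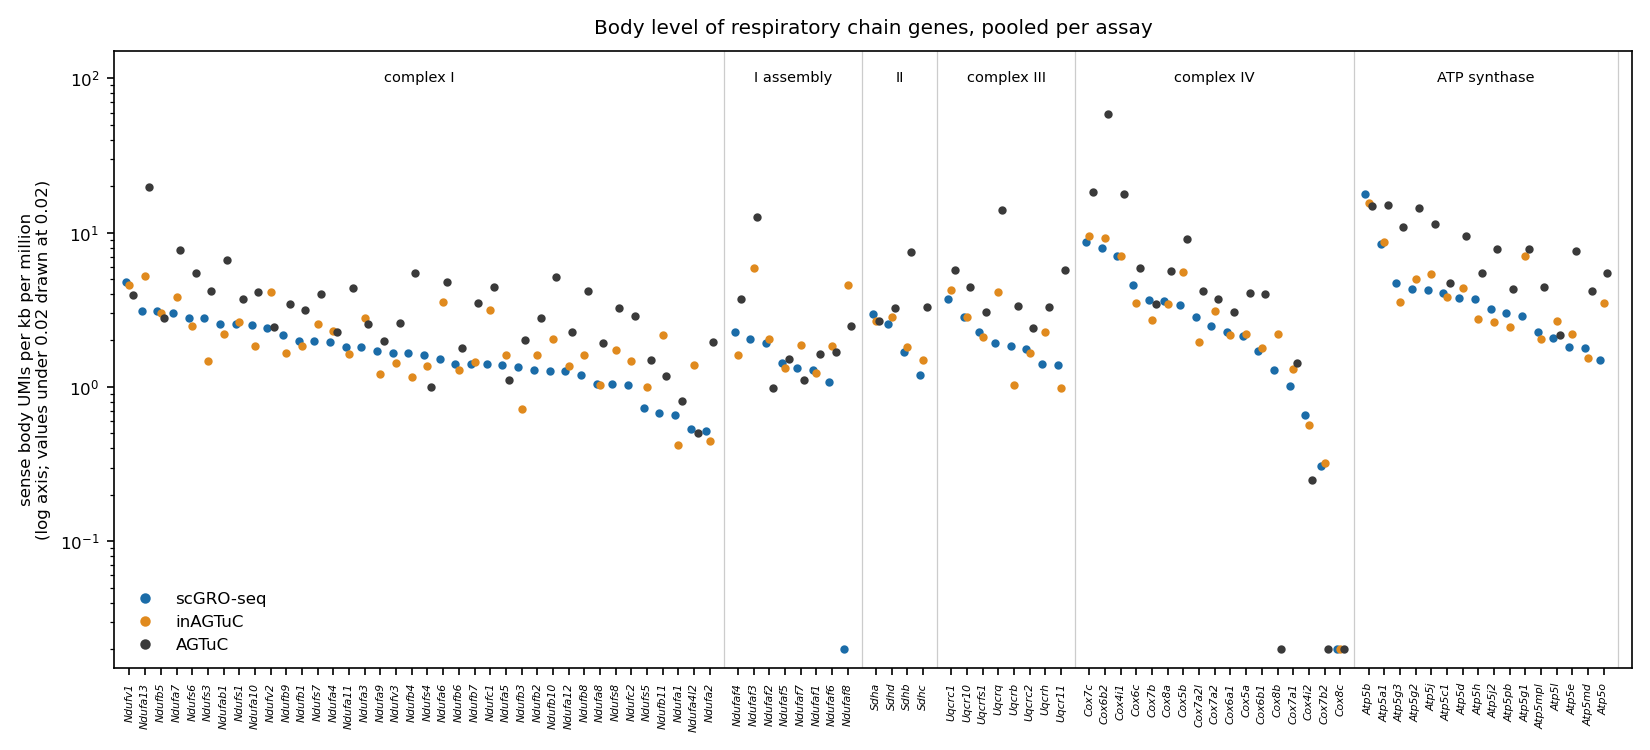
Pooled body level of the respiratory chain genes reported here with at least 200 counted bases, on a log axis in sense UMIs per kb per 1000000, by complex and in order of the scGRO–seq level. Blue points are scGRO–seq (10 batches), orange inAGTuC (4 libraries) and black AGTuC (2 libraries); Atp5b leads ATP synthase at 17.7 in scGRO–seq, and points at 0.02 are values under 0.02 or 0.

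Complex I takes electrons from NADH through a flavin and a row of iron–sulfur clusters to ubiquinone. Its highest gene in scGRO–seq was Ndufv1, the subunit that binds the flavin, at 4.75, and the accessory subunit Ndufa13 had 3.12. The iron–sulfur and core subunits Ndufs3, Ndufs1, Ndufv2, Ndufs7 and Ndufs8 lay between 2.78 and 1.05 in that order. The lowest were Ndufa2 at 0.520, Ndufa4l2 at 0.537 and Ndufa1 at 0.657, besides Ndufb4c, a gene of 485 bases with no body to count. Among the assembly factors, which build the complex and then leave it, Ndufaf4 had 2.28, Ndufaf3 2.05 and Ndufaf2 1.93, Ndufaf6 1.07 and Ndufaf1 1.29, while Ndufaf8 had no UMI in its 491 counted bases. Ndufaf3 was seen in only 13 of 2478 cells.

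In complex II, which oxidises succinate, the levels in scGRO–seq were 2.98 for the flavoprotein Sdha, 2.57 for the membrane anchor Sdhd, 1.68 for the iron–sulfur subunit Sdhb and 1.20 for the other anchor, Sdhc. In complex III, which passes electrons from ubiquinol to cytochrome c, the core protein Uqcrc1 led with 3.74, then Uqcr10 with 2.845 and the Rieske iron–sulfur protein Uqcrfs1 with 2.28. Uqcr11 at 1.39, Uqcrh at 1.41 and the second core protein Uqcrc2 at 1.75 were lowest. In complex IV, which reduces oxygen, Cox7c had 8.72, Cox4i1 7.03, Cox5b 3.38 and Cox5a 2.13. Cox5b was seen in only 17 of 2478 cells and Cox7c in 73, against 120 for Cox5a and 176 for Cox4i1.

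Several complex IV subunits have paired genes, 1 used widely and 1 known from lung, muscle or testis. The widely used gene had the higher pooled level in most pairs, though levels of different genes were not tested against each other. Cox4i1 had 7.03 in scGRO–seq, 7.06 in inAGTuC and 17.9 in AGTuC, against 0.662, 0.566 and 0.248 for Cox4i2, the form best known from lung. Cox7b had 3.67, 2.72 and 3.457, against 0.309, 0.321 and 0.0146 for its testis counterpart Cox7b2. Cox8a had 3.58, 3.45 and 5.66, while the muscle form Cox8b had 3, 2 and 0 UMIs and Cox8c of testis had none in its 229 counted bases. Cox7a2 had 2.47, 3.09 and 3.725 and Cox7a2l, known from supercomplexes, 2.86, 1.958 and 4.21, against 1.01, 1.30 and 1.42 for the muscle form Cox7a1, which rests on 4, 2 and 4 UMIs. Cox6a1 had 2.26, 2.18 and 3.05, and its muscle partner Cox6a2 had no body to count. Ndufa4, listed here by its symbol with complex I but known as a complex IV subunit, had 1.97, 2.30 and 2.26, against 0.537, 1.38 and 0.503 for Ndufa4l2, known from hypoxia, which rests on 3, 3 and 2 UMIs. Cox6b ran the other way: Cox6b1 had 1.71, 1.78 and 3.98, and Cox6b2, known from testis, had 7.90, 9.22 and 58.6. The Cox6b2 level rests on a body of 303 bases with 11, 5 and 58 UMIs, 40 of the 58 within 200 bases, and its gene is 1303 bases long.

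Summed over the 95 genes, the members took 2129 ± 227 per 1000000 body UMIs in scGRO–seq (SD, n = 10 batches, from 1805 to 2423) and 2214.5 ± 239 (SD, n = 4 libraries) in inAGTuC, whose libraries had 2452, 2277, 1882 and 2247. The 2 AGTuC libraries had 3268 and 3315, above every batch and library of the other assays. Within Exp208 the sums were 2088 in scGRO–seq and 2452 and 2277 in inAGTuC. The AGTuC sum was 1.50 times the inAGTuC sum after pooling, where protein-coding genes had 1.01 times, glycolysis genes 2.02 times and cytosolic ribosomal protein genes 4.40 times. A sum in bulk nuclei cannot tell fewer cells that transcribe a gene from fewer polymerases per cell. By complex, the mean in AGTuC against inAGTuC was 810 against 470 for ATP synthase, 1386 against 921 for complex I, 285 against 153 for complex II, 223 against 126 for complex III and 341 against 207 for complex IV. The assembly factors ran the other way, with 246 against 338, and of their UMIs in inAGTuC 382 of 619 were on Ndufaf2. Chromosome M molecules also differed between the assays, at 2.43 per 1000 UMIs in scGRO–seq, 1.72 in inAGTuC and 0.105 in AGTuC. They are counted neither in the member sums nor in the body UMIs to which these are scaled. Whether their rate goes with the sums was not tested.

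**Figure D2:**
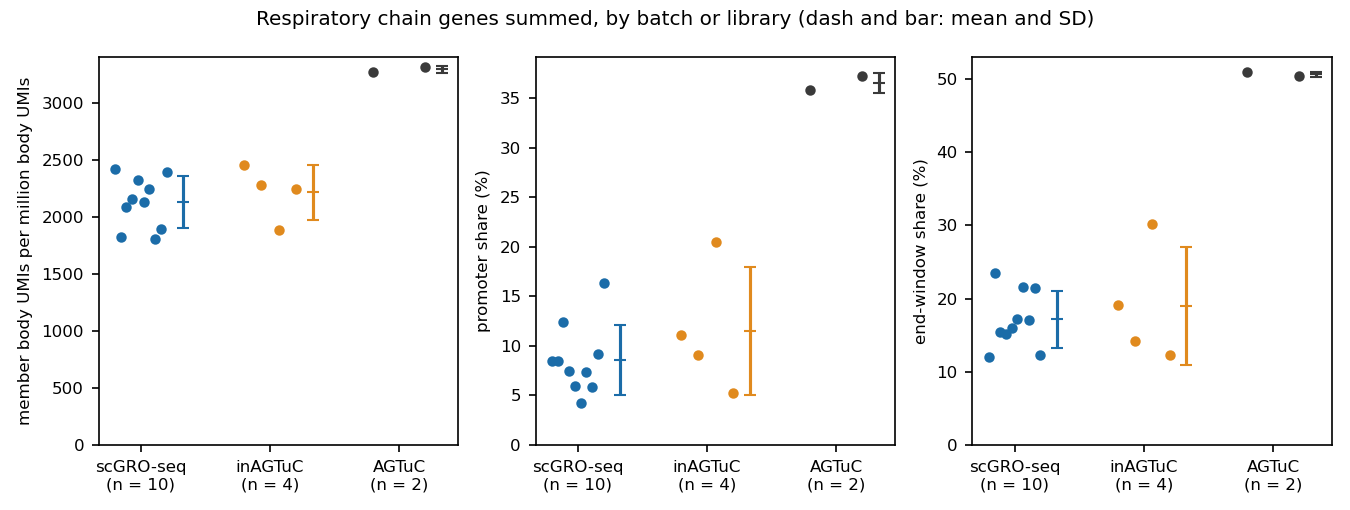
Respiratory chain genes summed in each of 10 scGRO–seq batches, 4 inAGTuC libraries and 2 AGTuC libraries (points, with mean and SD beside them): UMIs per 1000000 body UMIs, promoter share and end-window share, the shares in percent. The AGTuC libraries lie above all others in each panel (3268 and 3315, 35.9% and 37.2%, 50.9% and 50.4%).

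Body levels were compared gene by gene in 1 limma model over 14635 genes with at least 50 UMIs, 79 of them members, and p-values were adjusted over all genes. Between scGRO–seq and inAGTuC no member passed (0 of 79, background 0% in either direction), and at an unadjusted p under 0.05 there were 1 higher, Ndufs3, and 3 lower, Atp5o, Ndufv2 and Ndufaf6. The median standard error of a member was 0.465 on the log2 scale. For Atp5a1 the difference was 0.06 with a 95% interval from -0.53 to 0.65, and for Ndufs3 it was 0.87 with an interval from 0.18 to 1.56 (limma adjusted p = 0.885).

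In AGTuC against inAGTuC, 17 of the 79 members were higher (21.5%, background 15.8%) and 2 were lower (2.53%, background 18.1%). The minimum of 50 UMIs was met only through AGTuC by 15 of the 79 members. Of the 17 higher genes, 4 are among them (Cox6b2, Uqcr11, Atp5e and Uqcrq), so these calls follow in part from the filter. The other 13 of the 17 met it without AGTuC. Of the 2 lower genes, Cox7b2 had 5 UMIs in AGTuC and met the minimum only through inAGTuC (60) and scGRO–seq (148). Its call is therefore not free of the filter either, whereas Ndufaf2 had 339 UMIs in AGTuC. The median difference of the members was 0.83 on the log2 scale, against 0.12 for all genes, and 68 of 79 had a positive estimate whether called or not. This background is not matched to the members for level or length. The lower quartile of protein-coding body levels was 0.347 in inAGTuC and 0.0419 in AGTuC. Their upper quartile was 1.985 and 2.81. The part of level in these calls was not tested. With median-of-ratios scaling, the median difference of all genes shifts by -0.17. ATP synthase gave 6 of the higher genes, complex I 6, complex III 2, complex IV 2 and complex II 1. Without AGTuC library Exp125c_c02 5 members passed, without inAGTuC library Exp261_c16 15 passed, and with all scGRO–seq batches in the fit 7 passed (6 higher, 1 lower).

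Sdhb, which carries the iron–sulfur clusters of complex II, had the smallest p. Its level was 7.93 and 7.29 in the AGTuC libraries, against 1.27, 2.70, 1.25 and 1.785 in inAGTuC and 1.17 to 3.61 (median 1.74) in the scGRO–seq batches. AGTuC lay above all other samples, by 2.08 ± 0.34 on the log2 scale (SE, limma adjusted p = 0.000229). The other complex II genes had no such call, Sdha with 2.16 and 2.94 in AGTuC against 2.38, 2.965, 1.835 and 3.09 in inAGTuC.

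Ndufa13, also known as GRIM-19, had 18.03 and 20.5 in AGTuC, against 1.74, 7.11, 5.42 and 5.06 in inAGTuC and 0.616 to 6.41 (median 3.39) in scGRO–seq. The groups did not overlap, and the difference was 1.97 ± 0.39 (SE, limma adjusted p = 0.000848). Of its 476 body UMIs in AGTuC 157 lay within 200 bases, and the call remained when these were left out.

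Atp5g2, another ring gene, had 14.9 and 14.1 in AGTuC against 3.58, 6.37, 3.285 and 5.61 in inAGTuC, a difference of 1.56 ± 0.35 (SE, limma adjusted p = 0.00207). Atp5j2, the f subunit of the membrane part, had 8.38 and 7.63 against 3.13, 2.67, 2.07 and 2.735, a difference of 1.53 ± 0.38 (adjusted p = 0.00396). For both genes the AGTuC libraries were the highest of all 16 samples. Sdhb, Ndufa13, Atp5g2 and Atp5j2 were the only 4 of the 19 calls that were kept under every alternative that was run.

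Cox4i1, the regulatory subunit of complex IV, had 18.3 and 17.7 in AGTuC against 6.02, 6.88, 8.04 and 6.93 in inAGTuC, a difference of 1.31 ± 0.36 (SE, limma adjusted p = 0.00709), and the call was lost without AGTuC library Exp125c_c02 (adjusted p = 0.0652). Among scGRO–seq batches it ran from 3.07 to 14.7 (median 5.73). The remaining higher genes lay between 0.90 and 3.11 on the log2 scale. They were Ndufb4 (2.09), the acyl carrier protein Ndufab1 (1.62), Ndufs3 (1.41), Ndufa10 (1.17) and Ndufa7 (1.02) of complex I, Uqcr11 (2.16) and Uqcrq (1.61) of complex III, Cox6b2 (3.11), and Atp5e (1.50), Atp5md (1.44), Atp5j (1.03) and Atp5a1 (0.90). The Atp5a1 call was lost in 10 of 28 alternatives, among them without either AGTuC library, and its difference was 0.56 (limma adjusted p = 0.176) without inAGTuC library Exp234_c11. Uqcr11, Ndufa7, Atp5md, Atp5e and Cox6b2 lost their calls without inAGTuC library Exp261_c16. For Atp5j the difference was 0.45 (adjusted p = 0.263) without the fullest 200 bases, which held 90 of its 250 AGTuC UMIs.

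The 2 lower genes were the longest members. Cox7b2, spread over 105383 bases, had 2 and 3 UMIs in the AGTuC libraries and levels of 0.0180 and 0.0130, against 0.3695, 0.153, 0.316 and 0.4135 in inAGTuC with 9, 7, 14 and 30 UMIs. Its difference was -4.10 ± 0.92 (SE, limma adjusted p = 0.00213). The olfactory receptor genes moved along with it, from 0.111 in inAGTuC to 0.00906 in AGTuC, and their part in the result was not tested. Without AGTuC library Exp125c_c02 the call was lost (adjusted p = 0.0764).

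Ndufaf2, an assembly factor of 106037 bases, had 0.939 and 1.01 in AGTuC, against 1.71, 2.09, 1.77 and 2.26 in inAGTuC and 1.05 to 2.82 (median 1.81) in scGRO–seq. AGTuC lay below every inAGTuC library and every scGRO–seq batch, by -1.02 ± 0.26 against inAGTuC (SE, limma adjusted p = 0.00542), and lost the call without library Exp125c_c02 (adjusted p = 0.0694). Of its 933 scGRO–seq UMIs, 101 sat at 1 base, from 93 cell barcodes.

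**Figure D3:**
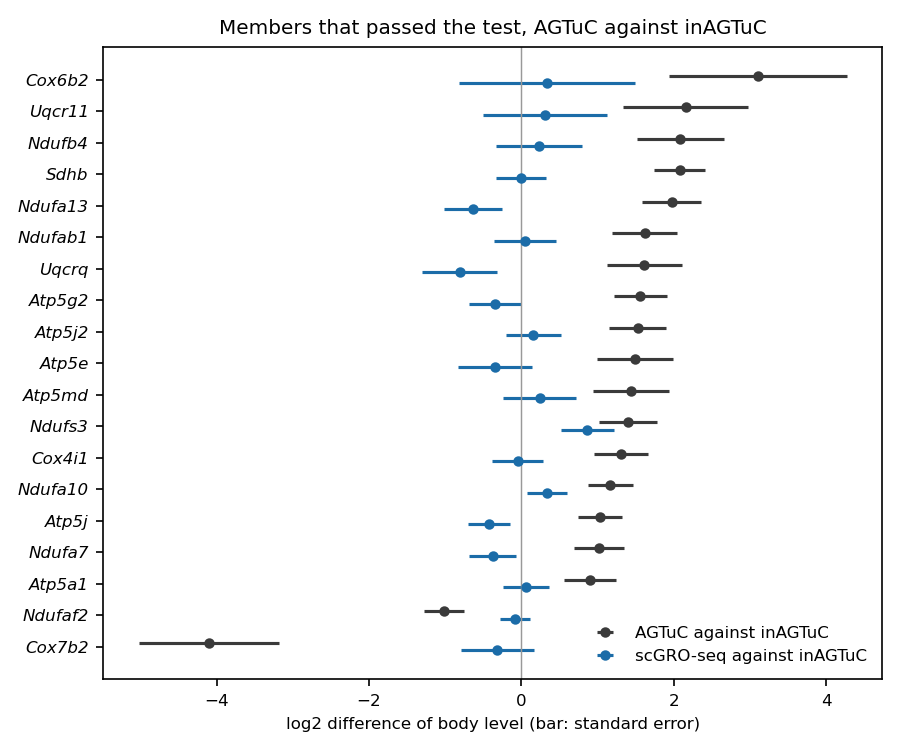
Log2 difference in body level, with its standard error, for the 19 respiratory chain genes that passed the limma test in AGTuC against inAGTuC (black), beside scGRO–seq against inAGTuC (blue). The black points run from -4.10 for Cox7b2 to 3.11 for Cox6b2, whereas none of the blue ones passed.

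The promoter share is the percent of sense UMIs in the first 500 bases among those plus the body, and it counts polymerases near the start, where they pause. Summed over members it was 8.58% ± 3.52 in scGRO–seq (SD, n = 10, from 4.23% to 16.3%) and 11.1%, 9.13%, 20.5% and 5.24% in the inAGTuC libraries. The AGTuC libraries had 35.9% and 37.2%, above all others. Within Exp208 the share was 12.4% in scGRO–seq and 11.1% and 9.13% in inAGTuC. Protein-coding genes had pooled shares of 2.05% in scGRO–seq, 2.99% in inAGTuC and 20.8% in AGTuC, but their bodies are longer, and the share sets a fixed window against the body. Along the members, the density in the first 100 bases was 30.35 times the body density in AGTuC, 2.32 times in scGRO–seq and 3.28 times in inAGTuC. In AGTuC it had fallen to 5.03 times between 300 and 400 bases.

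Shares were compared by a quasi-binomial model with limma's moderation of the dispersion. No member of 82 passed between scGRO–seq and inAGTuC (background 0.0655% higher and 0.0524% lower), and 0 were higher and 5 lower at an unadjusted p under 0.05, the smallest for Ndufs3 (28.2 points lower, adjusted p = 0.239). Without inAGTuC library Exp261_c16, 1 member passed as lower. In AGTuC against inAGTuC, 46 of 82 were higher (56.1%, background 56%) and 0 lower (background 0.457%), and 5 of the 46 met the minimum of 50 UMIs only through AGTuC. The share of members called was near that of all genes, with a median difference of 26.2 points against 15.2 points. Without Exp261_c16, 28 members passed.

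Complex I gave 23 of the 46, ATP synthase 9, the assembly factors 5, complex IV 4, complex II 3 and complex III 2. Called differences ran from 6.49 points for Ndufs4, a gene of 100300 bases, to 74.4 points for Ndufaf1. The Ndufs4 call was lost without inAGTuC library Exp261_c16 (5.92 points, adjusted p = 0.0505). Ndufv2, an iron–sulfur subunit at the NADH end of complex I, had 47.9% and 47.2% in AGTuC, against 1.61%, 0%, 17.1% and 2.78% in inAGTuC and 0% to 14.3% in scGRO–seq. Its difference was 42.7 ± 3.82 points (SE, adjusted p = 4.68e-17), with no overlap between AGTuC and the rest. Of the 161 inAGTuC body UMIs of Ndufv2, 100 lay within 200 bases, 55 of them in library Exp208_c12.

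Ndufaf1, a chaperone of the complex I membrane arm, had 76.9% and 73.4% against 0% in each of the 4 inAGTuC libraries, which held 14 body UMIs between them (74.4 ± 4.52 points, SE, limma adjusted p = 4.31e-06). A share of 0% adds no counting error, so this SE covers AGTuC alone and is too small. Others among the 10 of smallest p were Ndufaf6 (40.7 points), Atp5a1 (27.1), Atp5b (24.2), Sdha (24.3), Atp5c1 (20.8), Ndufb5 (35.3) and Ndufs7 (53.2). Of the 46 calls, 21 were kept under every alternative that was run.

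Promoter sequences of RefSeq on GRCm38 were held for 77 of the 95 members, from 250 bases before the start to 50 after it. They were searched on both strands for the core letters of factors known to act on these genes in other cells: NRF1 (GCATGCGC), ETS factors such as GABP (CCGGAAG) and YY1 (AAGATGGC), and for CCAAT and TATAAA. The NRF1 core was in 12 promoters (15.6%, against 4.08% of 16853 genes), the ETS core in 19 (24.7%, against 13.3%) and the YY1 core in 11 (14.3%, against 3.64%). At least 1 of these 3 was in 35 (45.45% of members, against 19.2%). CCAAT was in 34 (44.2%, against 42.6%) and TATAAA in 8 (10.4%, against 14.7%). A match is only a run of letters, and these shares are descriptions without a test. Of the members, 32 (33.7%, against 13.1% of protein-coding genes) had a gene starting on the other strand within 1 kb, such as Atp5j with Gabpa, the gene of a GABP subunit, and Sdhd with Timm8b.

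The 200 bases before the start are printed for members with a call in body level or promoter share. Motif letters are in capitals on the strand of the gene. Sdhb, Ndufa11, Ndufaf1 and Sdhd were picked from the promoter-share calls because these bases hold an NRF1 or ETS core. Their matches therefore do not show how common the cores are among called members. Sdhb (chr4:140961071-140961270, plus strand) has the smallest p among the body-level calls and shows an NRF1 core and a CCAAT match. Ndufa11 (chr17:56717562-56717761, plus strand), added after its values were seen, whose promoter share was higher by 52.9 points in AGTuC (limma adjusted p = 0.000486), shows the NRF1 core read on both strands. Ndufaf1 (chr2:119662835-119663034, minus strand) and Sdhd (chr9:50603850-50604049, minus strand) each show an ETS core. The promoter share of Sdhd was higher by 27.8 points in AGTuC (limma adjusted p = 0.00847), a call that was lost without inAGTuC library Exp261_c16 and without AGTuC library Exp125c_c02. Ndufv2 (chr17:66101560-66101759, minus strand) has none of the letters searched, and Cox7b2 (chr5:71548206-71548405, minus strand), 1 of the 2 members with a lower body level in AGTuC, shows CCAAT 3 times. Only matches within the printed bases are described here, and the RefSeq promoter entries also held an ETS core for Sdhb, CCAAT for Ndufaf1 and TATAAA for Cox7b2.
Sdhb: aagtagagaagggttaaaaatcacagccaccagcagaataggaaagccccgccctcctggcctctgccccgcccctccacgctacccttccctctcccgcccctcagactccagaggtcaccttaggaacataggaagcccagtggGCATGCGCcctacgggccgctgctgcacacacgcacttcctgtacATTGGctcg
Ndufa11: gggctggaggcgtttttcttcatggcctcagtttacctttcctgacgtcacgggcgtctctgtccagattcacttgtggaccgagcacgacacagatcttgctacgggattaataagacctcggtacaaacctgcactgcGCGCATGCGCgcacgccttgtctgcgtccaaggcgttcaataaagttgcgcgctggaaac
Ndufaf1: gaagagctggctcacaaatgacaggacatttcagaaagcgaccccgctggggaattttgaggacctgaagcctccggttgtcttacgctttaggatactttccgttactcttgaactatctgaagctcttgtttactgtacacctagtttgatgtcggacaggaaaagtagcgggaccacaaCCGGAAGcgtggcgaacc
Sdhd: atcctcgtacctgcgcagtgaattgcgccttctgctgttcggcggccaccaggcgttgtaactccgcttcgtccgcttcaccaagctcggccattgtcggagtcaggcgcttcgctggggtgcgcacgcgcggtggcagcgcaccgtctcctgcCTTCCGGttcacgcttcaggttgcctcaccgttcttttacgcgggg
Ndufv2: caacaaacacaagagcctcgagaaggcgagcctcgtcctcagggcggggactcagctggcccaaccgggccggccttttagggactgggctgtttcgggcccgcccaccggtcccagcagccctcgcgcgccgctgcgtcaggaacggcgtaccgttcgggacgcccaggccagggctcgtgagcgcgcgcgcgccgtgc
Cox7b2: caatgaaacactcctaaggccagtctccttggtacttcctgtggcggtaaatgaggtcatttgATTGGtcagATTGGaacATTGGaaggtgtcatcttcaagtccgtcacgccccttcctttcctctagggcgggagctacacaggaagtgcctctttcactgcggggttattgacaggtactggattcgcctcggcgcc

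Transcription runs on past the site where an RNA is cut and polyadenylated. The end-window share is the percent of sense UMIs in the 5 kb after the annotated end among those plus the body, with the window stopped at the next gene on that strand, as it was for 20 members. Summed over members it was 17.2% ± 3.89 in scGRO–seq (SD, n = 10, from 12.1% to 23.5%), 19.1%, 14.2%, 30.2% and 12.3% in inAGTuC, and 50.9% and 50.4% in AGTuC, where it lay above all others. Within Exp208 it was 15.5% in scGRO–seq and 19.1% and 14.2% in inAGTuC. Per base, the window held 0.4646 times the body density in scGRO–seq, 0.5175 times in inAGTuC and 2.42 times in AGTuC. Protein-coding genes had 0.661, 0.719 and 3.30 times, so the rise from inAGTuC to AGTuC was 4.67-fold for members and 4.58-fold for protein-coding genes. In AGTuC the density peaked at 3.56 times the body between 500 and 1000 bases after the end and was under that of the body from 5000 bases on.

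**Figure D4:**
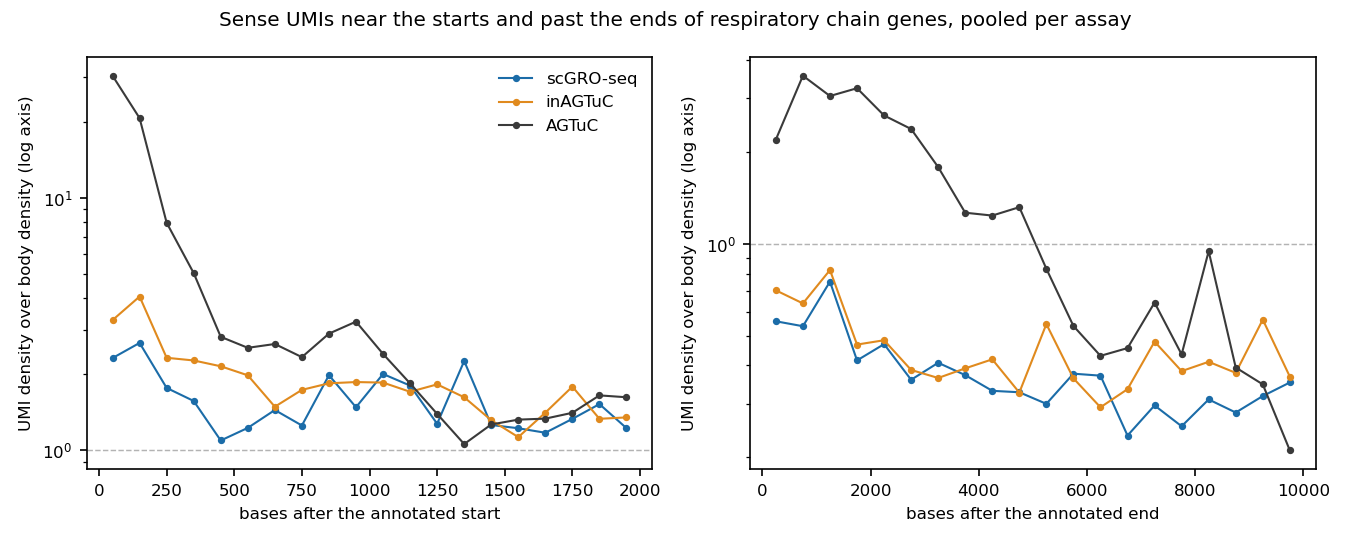
Sense UMI density over the body density, on a log axis, in the first 2000 bases of respiratory chain genes (left, bins of 100 bases) and in 10000 bases after their ends (right, bins of 500 bases), pooled per assay. AGTuC (black) starts at 30.35 and reaches 3.56 after the end, while scGRO–seq (blue) starts at 2.32 and inAGTuC (orange) at 3.28, and both stay under 1 after the end.

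No member of 86 passed the test of this share between scGRO–seq and inAGTuC (background 0.304% higher and 0.178% lower). At an unadjusted p under 0.05, Ndufaf8 was higher and Ndufa10 lower. In AGTuC against inAGTuC, 49 of 86 were higher (57%, background 36.6%) and 1 was lower (background 1.86%). The median difference was 28.3 points, against 8.46 points for all genes. This share too sets a fixed window against the body, and the members are short, so the comparison with all genes is not matched for length. Per base, the rise was 4.67-fold for members and 4.58-fold for protein-coding genes. Without inAGTuC library Exp261_c16, 33 passed in all. Of the 50 calls, 29 were lost under at least 1 of the alternatives that were run, and Atp5o reversed under 1. Complex I gave 20 of the higher genes, ATP synthase 11, complex IV 9, complex III 4, the assembly factors 3 and complex II 2, and 30 members were called higher for both promoter share and end-window share. Atp5a1 and Cox4i1 were the members called higher in AGTuC for all 3 measures, though the body-level call was lost in 10 of 28 alternatives for Atp5a1 and in 2 of 28 for Cox4i1, and 21 of the 95 members were called for none.

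Atp5b had the smallest p. Its end-window share was 48.8% and 52.5% in AGTuC, against 4.55%, 0%, 10.5% and 0% in inAGTuC and 0% to 11.8% in scGRO–seq, a difference of 49.4 ± 2.95 points (SE, limma adjusted p = 1.93e-22). The groups did not overlap, although the body level of Atp5b did. Atp5a1 had 52.4% and 52.55% against 21.7%, 10.3%, 18.75% and 1.61% (43.2 ± 3.83 points, adjusted p = 7.03e-14). Cox4i1 had 46.99% and 48.1% against 12.5%, 6.25%, 0% and 0% (44.7 ± 3.84 points, adjusted p = 1.59e-08). The others among the 10 of smallest p were Uqcrc1 (43.3 points), Ndufv2 (28.45 points), Atp5c1 (27.9), Ndufs1 (21.4), Atp5o (54.3), Sdha (25.4) and Sdhd (52.3). The Atp5o value turned to -15.45 points when small RNA genes in its window were counted.

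The lower member was Ndufb10, an accessory subunit of 2364 bases. It had 57.1% and 44.4% in AGTuC, against 96.4%, 87.5%, 75% and 93.75% in inAGTuC, a difference of -45.2 ± 10.7 points (SE, limma adjusted p = 0.000309). Of its end-window UMIs, 91 of 116 in scGRO–seq and 43 of 55 in inAGTuC lay within 200 bases, and none of 20 did in AGTuC. Without these bases the difference was -17.9 points (adjusted p = 0.412), and without library Exp125c_c02 it was -34.5 points (adjusted p = 0.185).

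Batches of scGRO–seq were compared over their libraries, which could be done for 50 members. Body levels differed between batches for 4 of them (8%, background 29.2%), and 10 passed at an unadjusted p under 0.05. The median range between batches was nearly the same, at 1.985 on the log2 scale for members and 2.01 for all genes. The lower share of calls therefore does not show that members varied less. Ndufb5, an accessory subunit of complex I, had 27 in Exp211 and 1.01 to 5.42 in the other batches (limma adjusted p = 4.53e-05). Of its 80 UMIs in Exp211, 57 lay within 200 bases, and over all batches the 61 UMIs there came from 22 barcodes, with 25 from 1 barcode and 45 at 1 position. Ndufb5 did not pass without the fullest 200 bases (adjusted p = 0.0594) and did with 1 UMI per position (adjusted p = 0.0159).

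Sdhc was highest in Exp156 at 3.98, then 2.71 in Exp160 and 2.65 in Exp208, and lowest in Exp260b at 0.424 (adjusted p = 0.00225, and 0.00418 without the fullest 200 bases). Cox7b2 ran from 0 in Exp156 and Exp160 to 0.715 in Exp263 (adjusted p = 0.0152, 0.0544 without those bases and 0.0117 with 1 UMI per position). The summed level of all members varied less, with Exp260b lowest at 1805 and Exp156 highest at 2423.

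Of the 2478 cells, 94.7% had at least 1 sense UMI on a member and 131 had none. The median cell had 3 member UMIs and the highest 49, and 1993 cells had UMIs on at least 2 members. The long genes Ndufaf2, in 27.9% of cells (95% Wilson interval 26.2 to 29.7), and Ndufs4, in 24.2%, were seen most widely, then Atp5b, a gene of 7082 bases, in 19.2% and Atp5c1 in 15.7%. Sdha was seen in 14%, Ndufs1 in 14.6%, Cox4i1 in 7.10% and Sdhb in 5.37% of cells. The median member was seen in 2.785% of cells, or 0.6255% with each cell thinned to 1000 UMIs, against a median of 0% and at most 0.605% for olfactory receptor genes in the same cells, whose median depth was 3448 nuclear UMIs. Olfactory receptor genes are shorter, with a median span of 0.948 kb against 7.08 kb for members. Per kb, the mean share of cells was 0.0187% for them and 0.457% for members. Thinned, Ndufaf2 was seen in 7.71%, Ndufs4 in 5.89% and Atp5b in 5.125% of cells. Cox6a2 and Cox8c had a UMI in 0 of 2478 cells, which by a limit of 3 counts allows a share of cells with a UMI of up to 0.121%, and Ndufb4c had no bases of its own to count. These intervals and limits cover counting error only.

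Most nuclei also gave molecules of chromosome M, which carries the mitochondrial genes of the respiratory chain, and 69 of the 2478 cells gave none. They made up 0.707 to 12.5 per 1000 UMIs between batches, highest in Exp160 at 12.5 and Exp208 at 8.43. The Exp160 value comes from 1 of its 2 libraries, with 15.2 in Exp160_c14 and 0.543 in Exp160_c11. Of the molecules, 24092 of 28071 in scGRO–seq were of plus-strand RNA. The rate of member UMIs per 1000 nuclear UMIs was set against the chromosome M rate of the same cell. Within plates, Spearman's rho ran from -0.30 to 0.32 over 35 plates with a median of 0.0258, and 19 were positive. Within batches it ran from -0.15 to 0.14 with a median of 0.0213, and 6 of 10 were positive. Ribosomal protein genes had a median of 0.0968 within plates (27 of 35 positive) and glycolysis genes 0.0232 (23 positive). Cells of a plate share a library but not a depth, and nuclear depth itself had a median rho of -0.26 with the chromosome M rate.

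Cells were also put in 4 bins of near equal size by chromosome M rate within their plate. From the lowest to the highest bin the chromosome M rate rose from 1.23 to 4.24 per 1000 UMIs, while the members had 0.9575, 1.00, 1.015 and 0.997 UMIs per 1000 nuclear UMIs. Within batches, the highest minus the lowest bin was 0.025 ± 0.12 for members (mean and SD, n = 10 batches, from -0.20 to 0.15), and 7 of 10 differences were positive. Ribosomal protein genes had 0.953 in the lowest and 1.17 in the highest bin, and glycolysis genes 0.569 and 0.651, with within-batch differences of 0.137 ± 0.193 and 0.113 ± 0.0962 (mean and SD), each positive in 9 of 10 batches. The median depth fell from 3833 to 3110 nuclear UMIs over the bins, and its part in these values was not tested.

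**Figure D5:**
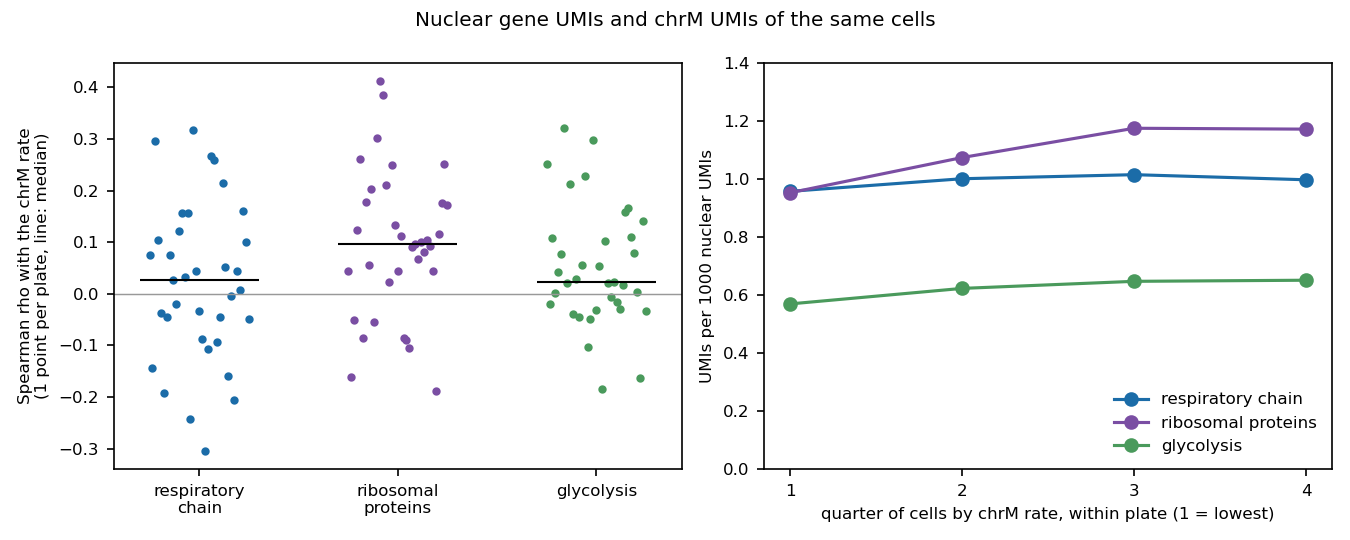
Left, Spearman's rho between the rate of nuclear gene UMIs and the chromosome M rate of the same cells, 1 point per plate (35 plates, line at the median). Right, UMIs per 1000 nuclear UMIs in 4 bins of cells by chromosome M rate within the plate; respiratory chain genes lie between 0.9575 and 1.015, and ribosomal protein genes between 0.953 and 1.17.

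Other genes of the pathway were taken from 2 fixed lists. The 37 other respiratory genes were cytochrome c, the complex III subunit Cyc1, which the symbol rule leaves out, and mostly assembly factors. Of these genes, 30 were tested for body level. In AGTuC against inAGTuC 6 were higher and 2 lower (background 15.8% and 18.1%), with a median difference of 0.76. Cycs, the gene of cytochrome c, was higher by 2.77 ± 0.63 (SE, limma adjusted p = 0.00225) and Cox20, an assembly factor of complex IV, by 2.48 ± 0.50 (adjusted p = 0.00096), while Nubpl and Sdhaf3 were lower by about 1 (-0.97 and -0.98). Of 19 genes for mitochondrial gene expression and biogenesis, 18 were tested, 4 were higher (Twnk, Polrmt, Yy1 and Polg) and 2 lower, against that background, with a median of 0.68. The lower ones were the coactivators Ppargc1a (-4.43 ± 1.155, limma adjusted p = 0.00564) and Ppargc1b (-1.34 ± 0.50, adjusted p = 0.041). Olfactory receptor genes, the silent background, also went from 0.111 in inAGTuC to 0.00906 in AGTuC. Their part in these lower calls was not tested. Between scGRO–seq and inAGTuC, none of either list passed for body level, promoter share or end-window share. Against the background of 15.8% higher, 8 of 15 glycolysis genes and 73 of 75 ribosomal protein genes were higher in AGTuC, with medians of 1.15 and 2.35. Of the glycolysis genes 1 was lower, Pfkp (-1.065, limma adjusted p = 0.0246), and of the ribosomal protein genes 0 were lower (background 18.1%). Whether genes of these lists met the minimum of UMIs only through the assay where they were higher was not checked, so their calls may follow in part from the filter. The background is not matched to these lists for level or length.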

How the data were processed

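The deposited files are lists of aligned reads, 1 read per line after the authors trimmed adapters (cutadapt), aligned to mm10 (Bowtie2) and collapsed duplicates by UMI (UMI-tools). The deposited score column holds the Bowtie2 mapping quality. Tool versions are not given in the sources used here. The members and gene lists were chosen with earlier results of these data known.

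Reads found in several libraries were left out, except those that inAGTuC library Exp261_c16 shares with its scGRO–seq namesake alone. A cell needed 1000 UMIs and 750 genes, and a library needed 24 such cells. The 5′ end of each read, with its strand turned, was counted on RefSeq GRCm38 spans: the first 500 bases (promoter), the body without 500 bases at each end, and 5 kb past the end, without annotated small RNA genes. Sense body UMIs ranged from 122990 to 2158824 in scGRO–seq batches, from 233314 to 694996 in inAGTuC and from 1064885 to 2204427 in AGTuC libraries.

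Body levels were tested with limma 3.58.1 (R 4.3.3, voom weights) on UMIs scaled to the total over all genes, with the 3 assays in 1 fit. Shares were tested with a quasi-binomial F test, its dispersions moderated with limma. Genes needed 50 UMIs, promoter shares a span of 2 kb and end windows 1 kb. P-values were adjusted over all genes tested (Benjamini-Hochberg, threshold 0.05), and the steps were tested on simulated data. Named members were the isoform pairs, the core subunits, the 3 highest and 3 lowest of each complex by scGRO–seq level, the 10 of smallest adjusted p per direction of a comparison, and those decided by 1 library; the other members and list genes were chosen after their values were seen. Alternatives changed filters, windows, scaling, mapping quality, experiment as a block and samples. The values of 1 member, which is in the counts, are not reported here.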

Additional observations from a re-analysis of the deposited data

Results flagged for a closer look

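In 5 of 53 series of samples, 1 sample stood apart by Dixon's criterion. The series were sums over members, chromosome M rates, a correlation, and body levels of members with a body-level call in these data. Since the genes were picked by those calls, no chance rate can be set beside this count. Among the scGRO–seq batches, Ndufb5 had a body level of 27 in Exp211, with the next batch at 5.42. Ndufa7 had 6.38 in Exp156, with the next at 3.49. Cox7b2 had 0.715 in Exp263, with the next at 0.3785. Atp5j had 1.13 in Exp260, below the next at 2.92. In inAGTuC, Cox6b2 had 37.7 in library Exp208_c14, from 5 UMIs, and 0 in the other 3 libraries.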

How the results depend on the processing

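The labels tie assays by experiment (Exp208, and Exp234 and Exp261 outside the 10 batches) and not by replicate number, so no fit in pairs was made. With experiment as a random block, 14 members passed for body level in AGTuC against inAGTuC. Of the 79 members tested for body level in AGTuC against inAGTuC, 19 passed, 7 (6 higher, 1 lower) with all scGRO–seq batches in the fit, and 5 to 22 when 1 sample was left out, the lowest without AGTuC library Exp125c_c02, where the lone AGTuC library is assumed to vary like the other groups. For the promoter share 46 passed, and 28 to 47 when 1 sample was left out. For the end-window share 50 passed, and 33 to 54 when 1 sample was left out. Both lowest counts were without inAGTuC library Exp261_c16, as was the 1 member called for promoter share in scGRO–seq against inAGTuC (0 to 1). Under the other alternatives, counts in AGTuC against inAGTuC were 7 to 27 for body level, 33 to 47 for promoter share and 39 to 59 for end-window share. Between scGRO–seq batches 1 to 5 members passed, the 1 with a minimum of 200 UMIs, where 13 were tested. The end-window share of Atp5o reversed from 54.3 to -15.45 points with small RNA genes counted. Of the settings run for 115 results on members, 2621 kept the direction and the side of the threshold, 253 lost the call and 1 reversed. Of the members, 16 had under 50 body UMIs and were not tested for body level, Ndufb4c and Cox6a2 among them for want of body bases.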
